A study of Mus musculus with 2 samples.

Results

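Notch signalling in the fetal liver was described through 10 genes: the receptors Notch1, Notch2, Notch3 and Notch4, the ligands Jag1, Jag2, Dll1 and Dll4, and the target genes Hes1 and Hey1. The 10 were chosen by symbol, with earlier results of these data known, and are all reported whatever their level. All 10 were found among 43346 mouse gene rows by their Ensembl identifiers. Total RNA from liver of B6NCrl mouse embryos at embryonic day 14.5 was sequenced in 1 group of 2 biological replicates, 1 library each. The labels name no allele and no treatment, call each sample 1 liver taken on its own collection day, and also give the sex as male and female pooled. RNA above 200 nucleotides was used at 10 ng, with spike-in RNA added. With 1 group there was no condition to compare and no test, so each value is given per liver, and the SD over 2 livers is the replicate error.

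Notch receptors are single-pass membrane proteins that bind Jagged and Delta-like ligands on neighbouring cells. Binding lets ADAM proteases and then the gamma-secretase complex cut the receptor, and the freed intracellular domain joins the DNA-binding protein RBPJ to switch on Hes and Hey repressors. In developing liver the pathway is best known for bile duct formation, where JAG1 on portal mesenchyme meets NOTCH2 on hepatoblasts, and Notch1, Notch4 and Dll4 are known from endothelium.

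Levels are given in TPM, a gene's share of all transcripts after scaling by length, which can be compared between genes. Reads are expected counts, the estimated reads of a gene. Replicate 1 held 37059776 reads on mouse gene rows and replicate 2 held 26908926. Of these the 10 genes held 3190 and 2431 reads, and their TPM summed to 13.64 and 14.01. The livers carried the markers of their label: the hepatoblast products Alb and Afp stood at 2583 and 2847 TPM and at 6417 and 6856 TPM, and the erythroid beta globin Hbb-bs at 80700 and 77948 TPM. Adult globin genes took 39.8% and 38.0% of the TPM on mouse gene rows, so every other gene is measured against a total with a large part from red cell RNA. In bulk RNA, fewer cells of a type and less RNA per cell cannot be told apart.

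The promoters of the 4 receptors are shown because the report turns first on these paralogs, whose RNA levels lay up to 27.8-fold apart. Each line gives the 250 bases before the RefSeq start on GRCm38.p6 (mm10), 5′ to 3′ on the gene's strand, with CG dinucleotides in capitals. The windows are chr2:26503823-26504072 (minus strand) for Notch1, chr3:98013288-98013537 (plus) for Notch2, chr17:32166891-32167140 (minus) for Notch3 and chr17:34564045-34564294 (plus) for Notch4.
Notch1: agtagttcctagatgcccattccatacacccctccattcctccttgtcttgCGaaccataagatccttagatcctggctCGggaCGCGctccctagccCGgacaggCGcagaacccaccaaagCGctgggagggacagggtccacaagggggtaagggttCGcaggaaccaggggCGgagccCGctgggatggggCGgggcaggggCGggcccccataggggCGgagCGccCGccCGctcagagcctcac
Notch2: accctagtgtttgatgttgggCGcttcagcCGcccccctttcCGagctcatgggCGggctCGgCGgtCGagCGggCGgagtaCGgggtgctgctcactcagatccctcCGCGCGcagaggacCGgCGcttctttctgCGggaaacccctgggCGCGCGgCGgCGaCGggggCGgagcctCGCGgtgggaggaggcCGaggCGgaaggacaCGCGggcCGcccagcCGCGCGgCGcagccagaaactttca
Notch3: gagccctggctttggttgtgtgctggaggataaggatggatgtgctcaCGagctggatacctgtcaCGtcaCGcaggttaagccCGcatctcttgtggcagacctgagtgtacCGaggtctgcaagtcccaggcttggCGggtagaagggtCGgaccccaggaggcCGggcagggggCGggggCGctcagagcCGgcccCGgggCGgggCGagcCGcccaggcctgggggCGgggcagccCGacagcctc
Notch4: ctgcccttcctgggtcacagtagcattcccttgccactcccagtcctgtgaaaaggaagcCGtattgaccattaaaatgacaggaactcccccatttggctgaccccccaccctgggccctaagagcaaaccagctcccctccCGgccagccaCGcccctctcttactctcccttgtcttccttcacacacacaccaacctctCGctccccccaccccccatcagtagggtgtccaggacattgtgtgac
The Notch2 window held 34 CG dinucleotides, more than 96.5% of the 32851 windows in the table, whose median was 6. Notch3 held 17, Notch1 held 16 and Notch4 held 4, the last with more than only 37.8% of windows. The receptor with the highest RNA level thus had the most CG and the receptor with the fewest CG was not the lowest in level. Windows were found for 8 of the 10 members, 9 windows in all. Of these, Jag2 held 54 CG, more than 99.98% of windows, and Jag2 was the lowest member in level. Jag1 held 20, Dll4 held 14, and the 2 windows of Dll1 held 21 and 13. In 4 of the 9 windows some bases lay inside the leading transcript of the GENCODE annotation: 124 for Jag1, 153 for 1 Dll1 window, 27 for Notch4 and all 250 for Jag2. The letters TGGGAA, the core of the RBPJ motif, searched on both strands, were in 0 of the 9 windows, against 21.6% of all windows of that length. Nothing follows from this about RBPJ binding.

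Notch2 was the leading receptor in both livers, about 2.5 to 2.7 times the level of Notch1, and Notch3 was the lowest receptor in both. Notch2 (ENSMUSG00000027878.10, chr3:98013527-98150361), the receptor known for bile duct formation, stood at 4.44 TPM in replicate 1 (1931 reads, exact Poisson 95% interval 4.24 to 4.64) and 4.72 TPM in replicate 2 (1428 reads, 4.48 to 4.97), a mean of 4.58 ± 0.198 (SD, n = 2). Its intervals in the 2 livers overlapped, and 65.1% of the 21474 protein-coding rows were lower.

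Notch1 (ENSMUSG00000026923.11, chr2:26457903-26516663), the receptor known from blood stem cell emergence and T cell fate, stood at 1.63 TPM (566 reads, 1.5 to 1.77) and 1.90 TPM (445 reads, 1.73 to 2.09), a mean of 1.765 ± 0.191 (SD, n = 2). The values of Notch1 lay below those of Notch2 in both livers, with Notch2 2.72 times higher in replicate 1 and 2.48 times in replicate 2.

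Notch4 (ENSMUSG00000015468.10, chr17:34564268-34588503), a largely endothelial receptor, stood at 0.53 TPM (64 reads, 0.408 to 0.677) and 0.48 TPM (54 reads, 0.361 to 0.626), a mean of 0.505 ± 0.0354 (SD, n = 2). Notch3 (ENSMUSG00000038146.7, chr17:32120820-32166852), the receptor of vascular smooth muscle and pericytes, stood at 0.18 TPM (59.7 reads, 0.137 to 0.232) and 0.17 TPM (39.6 reads, 0.121 to 0.232), a mean of 0.175 ± 0.00707 (SD, n = 2). Both were low in both livers, and Notch2 was 24.7 and 27.8 times higher than Notch3.

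Among the receptors' summed TPM, 6.78 in replicate 1 and 7.27 in replicate 2, Notch2 took 65.2% ± 0.398 and Notch1 25.1% ± 1.48 (SD, n = 2). Notch4 took 7.21% ± 0.859 and Notch3 2.50% ± 0.224 (SD, n = 2), but by leading transcripts Notch4 took 3.75%, and by reads 2.59%, closer to Notch3 with 2.69% and 2.14%. Notch2 and Notch1 held most of the receptor RNA in both livers under each of these measures.

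Jag1, Dll1 and Dll4 were each below 1 TPM and their gene rows could not be ranked against one another, while Jag2 was almost without reads. Jag1 (ENSMUSG00000027276.7, chr2:137081456-137116644), the ligand of the portal mesenchyme, stood at 0.55 TPM (127 reads, 0.459 to 0.654) in replicate 1 and 0.94 TPM (150 reads, 0.796 to 1.10) in replicate 2, a mean of 0.745 ± 0.276 (SD, n = 2). It was the member with the widest relative spread among those with more than 10 reads in all, and its intervals in the 2 livers did not overlap.

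Dll4 (ENSMUSG00000027314.6, chr2:119325784-119335962), the ligand of arterial and sprouting endothelium, stood at 0.70 TPM (107 reads, 0.574 to 0.846) and 0.69 TPM (73 reads, 0.541 to 0.868), a mean of 0.695 ± 0.00707 (SD, n = 2). Dll1 (ENSMUSG00000014773.9, chr17:15367354-15376872), a Delta ligand known from somites, neural progenitors and lymphoid fates, stood at 0.76 TPM (56 reads, 0.574 to 0.987) and 0.64 TPM (53 reads, 0.479 to 0.838), a mean of 0.70 ± 0.0849 (SD, n = 2). The values of Dll4 in the 2 livers were close, but their intervals leave room for a difference. The Dll1 value depends on which transcripts are counted, as given further on.

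Jag2 (ENSMUSG00000002799.5, chr12:112907819-112929776), the second Jagged ligand, had 4 reads in replicate 1 and 6 in replicate 2. These came to 0.02 TPM (0.00545 to 0.0512) and 0.05 TPM (0.0183 to 0.109), and Dll4 was 35 and 13.8 times higher. With so few reads, only the low level of Jag2 is resolved and not a difference between the livers.

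The ligands' TPM summed to 2.03 and 2.32, less than that of the receptors in both livers. Jag1 took 33.8% ± 9.49 of it, Dll1 32.5% ± 6.97, Dll4 32.1% ± 3.35 and Jag2 1.57% ± 0.827 (SD, n = 2). By leading transcripts, described further on, Dll1 took 20.8%, Jag1 39.2% and Dll4 38.2%, and by reads, which are not scaled by length, Dll1 took 18.9% and Jag1 48.2%, so the near-equal shares hold for the TPM of gene rows alone. The means also hid a change of rank, since Jag1 was 0.786 times Dll4 in replicate 1 and 1.36 times Dll4 in replicate 2.

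Hes1 was measured at the level of Notch2, whereas Hey1 stood at 0.25 TPM. Hes1 (ENSMUSG00000022528.7, chr16:30064384-30067796), a basic helix-loop-helix repressor that Notch activates directly in many tissues, stood at 4.58 TPM (252 reads, 4.03 to 5.18) and 4.17 TPM (166 reads, 3.56 to 4.85), a mean of 4.375 ± 0.290 (SD, n = 2). Hey1 (ENSMUSG00000040289.4, chr3:8663359-8667256), the related repressor known from endothelium and heart, stood at 0.25 TPM in both livers, from 24 reads (0.160 to 0.372) and 17 reads (0.146 to 0.400). Hes1 was 18.3 and 16.7 times higher than Hey1 and took 94.6% ± 0.340 of their summed TPM (SD, n = 2). Hes1 and Hey1 have no entry in the promoter table.

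Of the 10 members, 3 (Notch1, Notch2 and Hes1) reached 1 TPM in both livers, a share below the 49.2% of protein-coding rows that did. In order of mean TPM the members ran Notch2, Hes1, Notch1, Jag1, Dll1, Dll4, Notch4, Hey1, Notch3 and Jag2. Neighbours were told apart where both values of the higher gene lay above both values of the lower one, which held for 6 of 9 neighbouring pairs. This rule leaves out counting error. The Poisson intervals of Dll4 and Notch4, and of Hey1 and Notch3, overlapped in both livers, and those of Notch4 and Hey1 in replicate 2. Notch2 and Hes1, Jag1 and Dll1, and Dll1 and Dll4 did not differ beyond their spread. The plot of member levels shows the steps from Hes1 to Notch1, from Notch1 to the ligands and from Notch3 to Jag2 as gaps that the intervals do not bridge.

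**Figure D1:**
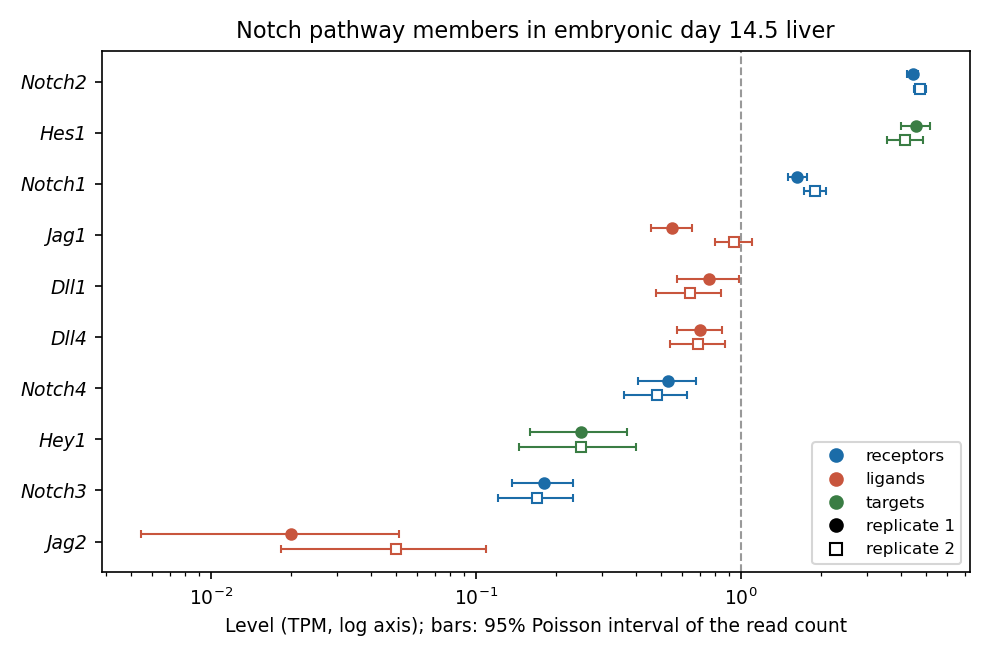
Level of each member in TPM on a log axis in replicate 1 (filled circles) and replicate 2 (open squares), coloured by role, with exact 95% Poisson intervals of the read count as bars and a dashed line at 1 TPM. Notch2, Hes1 and Notch1 lie above the line in both livers, and the bars of Jag1, at 0.55 and 0.94 TPM, do not meet.

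The transcript rows showed that the gene level of 2 members, Notch4 and Dll1, rested to a large part on a handful of reads. A gene's TPM is the sum over its transcripts of reads per length, so a few reads assigned to a short transcript weigh as much as many on the full-length one. The leading transcript, the one with the most reads, was protein-coding for all 10 members. It held 100% of the reads for Notch2, Notch3, Jag1, Jag2, Dll4 and Hey1. No member reached the mean of 5 TPM set for describing transcripts, so all 10 were described after their values had been seen.

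For Notch4, the 6591-nucleotide transcript Notch4-201 held 94.95% and 94.1% of the reads but 42.5% and 56.3% of the TPM. In replicate 1 the rest lay on Notch4-203, 356 nucleotides long with 2.1 reads and 37.1% of the TPM, and on Notch4-209, 352 nucleotides long with 1.13 reads and 20.3%. In replicate 2 it lay on another short transcript, Notch4-210, 619 nucleotides long, with 3.16 reads and 43.7% of the TPM. None of these short transcripts is annotated as protein-coding, and none of the 3 had a read in both livers. By Notch4-201 alone, Notch4 stood at 0.22 and 0.27 TPM, and Notch2 was 20.2 and 17.5 times higher instead of 8.38 and 9.83 times.

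For Dll1, the 3581-nucleotide transcript Dll1-201 held 77.1% and 94.9% of the reads and 39.0% and 77.7% of the TPM. The retained-intron transcript Dll1-204, 751 nucleotides long, held 10.71 reads and 51.6% of the TPM in replicate 1, against 2.69 reads and 22.3% in replicate 2. The gene row of Dll1 was therefore lower in replicate 2, at 0.64 against 0.76 TPM, while Dll1-201 was higher there, at 0.49 against 0.30 TPM. The direction of the difference in Dll1 thus depends on the transcripts counted. Both values of Dll1-201 also lay below both values of Dll4 and of Jag1, so by leading transcripts that rule told Dll1 apart from these ligands. The rule leaves out counting error, and no interval was computed for Dll1-201, which had 43.2 and 50.0 reads.

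Notch1-201 held 99.01% and 98.9% of the Notch1 reads and 87.4% and 84.7% of its TPM, and Hes1-201 held 98.2% and 100% of the Hes1 reads and 94.5% and 100% of its TPM. The means of Notch1 and Hes1 moved from 1.765 to 1.52 TPM and from 4.375 to 4.245 TPM when other transcripts were left out. By leading transcripts alone the order was Notch2, Hes1, Notch1, Jag1, Dll4, Dll1, Hey1, Notch4, Notch3 and Jag2, with Notch4 at 0.245 ± 0.0354 beside Hey1 at 0.25 TPM in both livers (SD, n = 2).

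**Figure D2:**
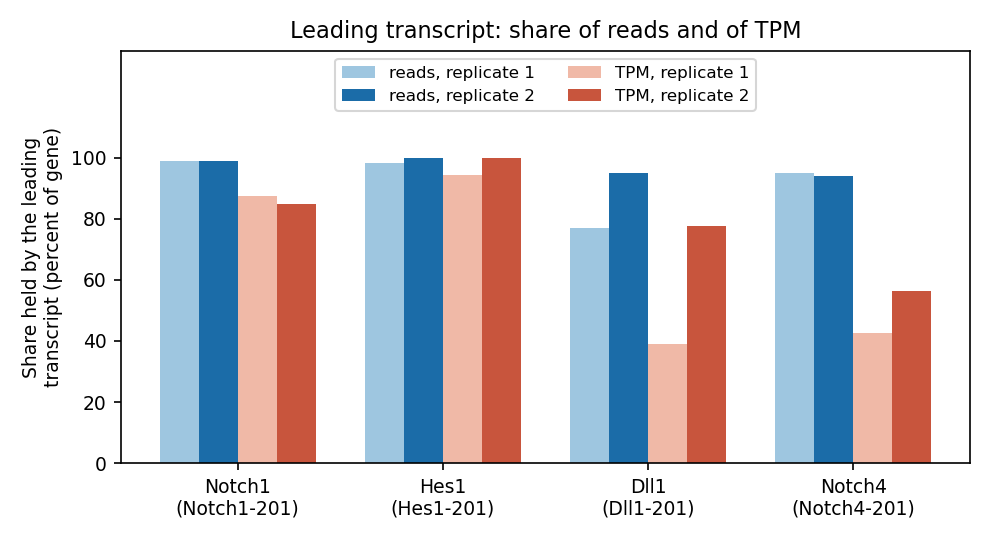
Share of a gene's reads (blue) and of its TPM (red) held by its leading transcript, in percent, for the 4 members with reads on other transcripts, in replicate 1 (light) and replicate 2 (dark). The bars of reads and TPM are close for Hes1 and apart for Dll1 (77.1% against 39.0% in replicate 1) and Notch4 (94.95% against 42.5%).

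Other genes lie across some members. Opposite-strand genes with exonic overlap and reads of their own were Gm13568 (22.2 and 14.5 reads) and 0610009E02Rik (14.9 and 17.6) at Notch1, Gm17276 (8.32 and 15.4) at Notch3, Gm14207 (6 and 10) at Dll4, and A930024N18Rik (1.05 and 2.3) at Dll1. A strand setting for counting was not given in the sources used here. It is thus not known how far reads of these genes and of the member were told apart where they overlap. At Notch2, the same-strand gene Gm42820 overlaps by 541 exonic bases in GENCODE M21 and has no row in the tables used here, so its reads, if any, cannot be told apart from those of Notch2. For Notch1, Dll1 and Dll4 the deposited SD of the estimated count, which reflects reads shared with other rows, was at most 1.31% of the reads. For Notch3 it was 0.788% and 2.98%, and for the other 6 members it was 0.

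Between the livers, Jag1 was the member whose read share differed by more than the counting error of independent reads. The read share is a gene's reads over all mouse reads, and its ratio, replicate 2 over replicate 1, was given an exact binomial 95% interval that covers counting error only. Jag1 had a ratio of 1.63 (1.28 to 2.08) and was the single member of 10 whose interval lay above 1, against 24.9% of the 16273 genes with 10 or more reads in all. No member's interval lay below 1, against 12% of those genes. A count of 1 in 10 is under that background. Among the 1419 genes with 200 to 400 reads in all, the range that holds Jag1 with 277, 20.2% had an interval above 1 and 4.16% had a ratio of at least that of Jag1.

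The other members' ratios ran from 0.907 for Hes1 (0.741 to 1.11) to 2.07 for Jag2 (0.490 to 9.95). Notch2, with the most reads, had the narrowest interval, 1.02 (0.9505 to 1.09), so a difference of the size seen in Jag1 would have been resolved for it. Dll1 had 1.30 (0.878 to 1.93) and Notch4 1.16 (0.794 to 1.70), and their intervals hold both 1 and the ratio of Jag1, so they were separated from neither.

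On the scale of log2 of TPM plus a pseudocount of 1, which understates differences of low genes, Jag1 was 0.32 higher in replicate 2 and Hes1 was the lowest at -0.11. None of the 3 members at 1 TPM or more in either liver was 1.5-fold apart, against 1.87% of 12114 such genes higher in replicate 2 and 1.39% lower. The median log2 ratio of the 10 members was -0.0043 and that of the 12114 genes was 0.096. With CPM from reads scaled by TMM factors, which correct library totals, in place of TPM, the median of all genes moved to -0.0037, the log2 ratio of Jag1 was 0.53, and those of Notch2 (-0.03), Dll1 (0.20) and Notch4 (0.11) took the other sign.

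**Figure D3:**
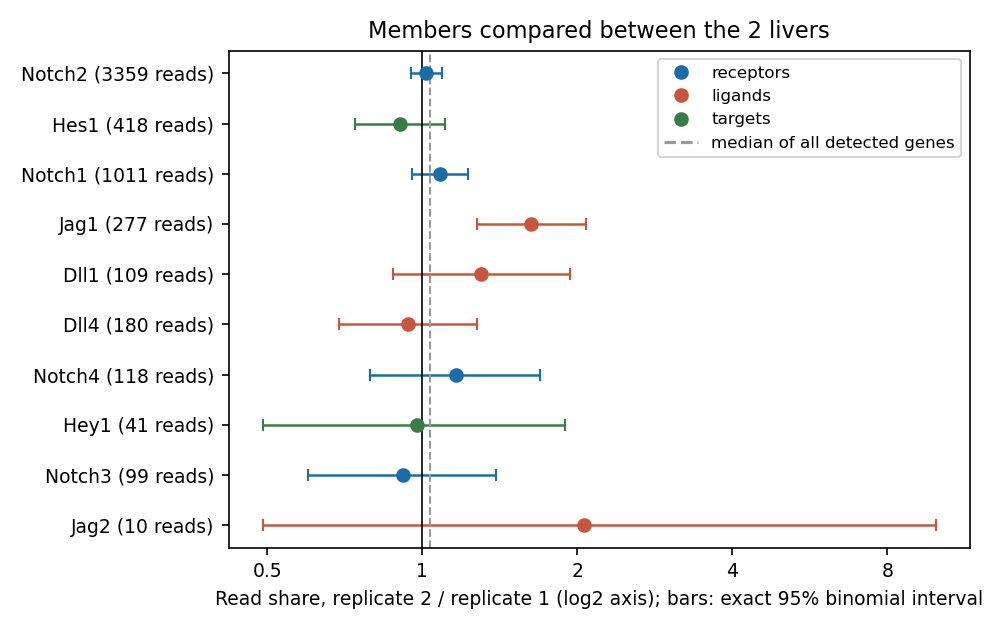
Ratio of read shares, replicate 2 over replicate 1, on a log2 axis for each member, with exact 95% binomial intervals as bars, the reads of both livers in parentheses, a solid line at 1 and a dashed line at the median of all genes at 1 TPM or more in either liver (1.04). Jag1 at 1.63 is the member whose bar does not reach 1, and the bar of Jag2, from 10 reads, spans 0.490 to 9.95.

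Markers of cells that could carry Jag1 moved in both directions between the livers. The 6 smooth muscle and pericyte markers summed to 17.18 TPM in replicate 1 and 11.11 in replicate 2. Their read share interval lay below 1 for 4, among them Acta2 (10.7 and 7.02 TPM, ratio 0.627) and Tagln (4.13 and 2.20 TPM, 0.509), and above 1 for Cspg4 (0.05 and 0.16 TPM, 3.27), with Pdgfrb at 1.70 and 1.41 TPM. Acta2 and Tagln carried most of the sum, so it does not stand for the list as a whole.

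The 8 endothelial markers summed to 90.8 and 91.1 TPM, and all 8 reached 1 TPM in both livers. They were led by Egfl7 (39.4 and 39.0 TPM), Lyve1 (18.3 and 18.1) and Stab2 (14.5 and 14.4), with Emcn the lowest at 1.46 and 1.15. Their sum, carried mostly by these leading genes, was level between the livers, but the read share interval lay above 1 for Cdh5 (1.16, 1.04 to 1.28) and Stab2, the latter at its very edge, and below 1 for Tek (0.817, 0.718 to 0.929).

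The 7 bile duct markers summed to 11.62 and 9.99 TPM, and 4 of them reached 1 TPM in both livers. Spp1 led with 5.29 and 4.62 TPM, Krt19 stood at 1.97 and 1.02, and Cftr was the lowest (0.01 and 0.10). Their read share interval lay below 1 for Krt19 and Epcam and above 1 for Cftr, from 3 and 11 reads.

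The 4 stellate markers summed to 46.9 and 53.7 TPM, and 3 of them had an interval above 1, among them Des (1.08 and 1.72 TPM, ratio 1.60, 1.25 to 2.05), while Lrat had one below (1.02 and 0.56 TPM, ratio 0.531). Col1a1 (25.1 and 30.8 TPM) and Reln (19.7 and 20.7) led this list. All 3 megakaryocyte markers had an interval above 1: Pf4 (338 and 418 TPM), Gp9 (24.1 and 29.7) and Itga2b (16.9 and 23.4), a sum of 379 and 471 TPM. Of all genes with 10 or more reads, 24.9% had an interval above 1 and 12% had one below. With many reads a small shift is enough, as for Afp at a ratio of 1.02. The interval also lay above 1 for 3 of 4 hepatoblast, 2 of 4 macrophage and 1 of 4 erythroid markers. It lay below 1 for 3 erythroid markers, 1 T lymphoid marker and 1 stem and progenitor marker. The part of any of these cell types in the ratio of Jag1 was not tested.

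The T lymphoid markers, given because Notch1 is known for T cell fate, summed to 1.79 and 1.98 TPM, with Tcf7 at 1.45 and 1.67, Rag1 at 0.26 and 0.16, Ptcra at 0.08 and 0.15, and Cd3e at 0 reads in both livers. Blood stem and progenitor markers summed to 21.9 and 21.8 TPM, led by Kit (9.71 and 9.16), Cd34 (8.66 and 9.20) and Hlf (2.99 and 2.91), with Mecom the lowest (0.55 and 0.53). Macrophage markers summed to 83.7 and 89.8 TPM, led by Cd5l (34.3 and 37.5), C1qa (33.4 and 33.6) and Adgre1 (15.6 and 17.9), with Vsig4 the lowest (0.38 and 0.83). The remaining lists were those of hepatoblasts, 9283 and 10037 TPM in sum with Hnf4a the lowest (9.42 and 8.65), and of erythroid cells, 82550 and 79816 TPM in sum, where Alas2 (833 and 812) and Klf1 (425 and 463, the lowest) stood below Hbb-bs.

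**Figure D4:**
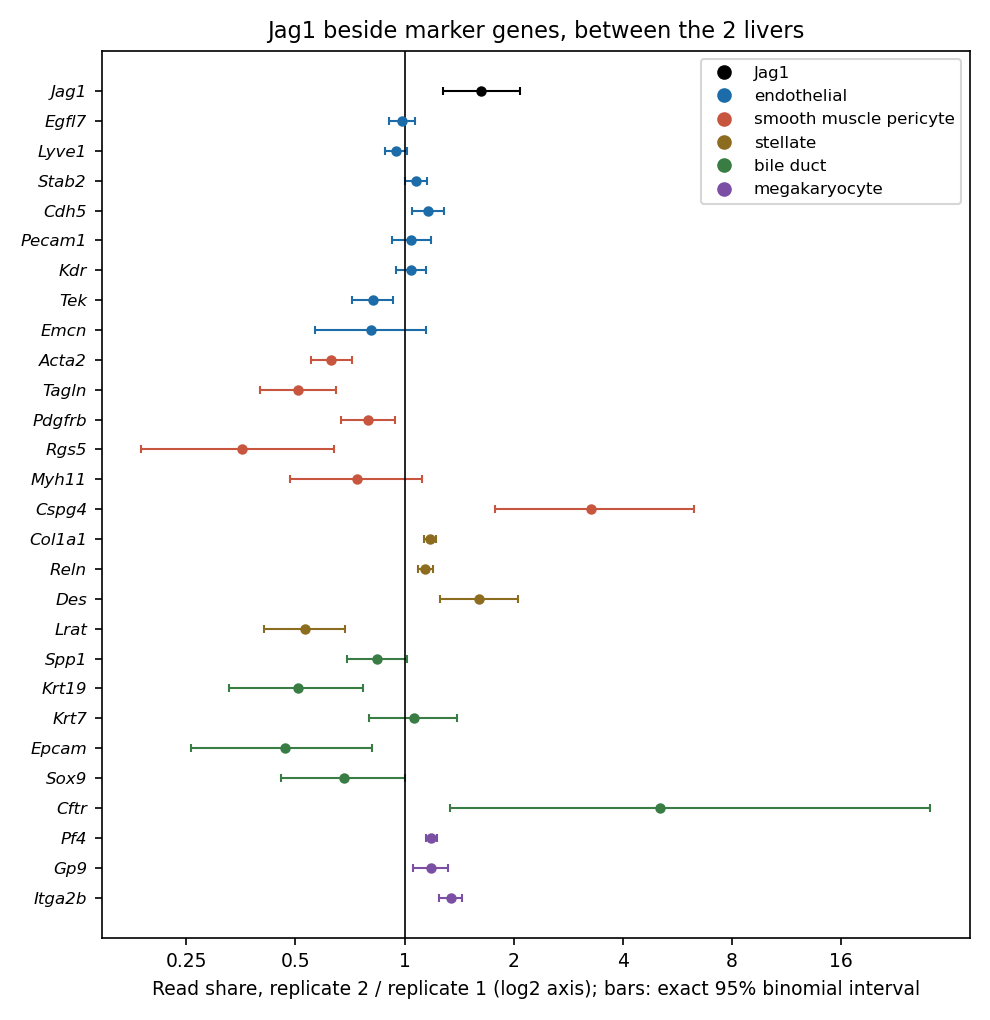
Ratio of read shares, replicate 2 over replicate 1, on a log2 axis for Jag1 (black, top) and markers of 5 cell types (1 bile duct marker is not drawn), with exact 95% binomial intervals as bars and a line at 1. Among smooth muscle and pericyte markers, the bars of Acta2, Tagln, Pdgfrb and Rgs5 lie left of the line and that of Cspg4 right of it. Among stellate markers, the bars of Des, Col1a1 and Reln lie right of it and that of Lrat left. Those of the 3 megakaryocyte markers lie right of it, as does that of Jag1 at 1.63.

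Of the 58 other pathway genes, in 7 lists by role, 42 reached 1 TPM in both livers, against 3 of the 10 members and 49.2% of protein-coding rows. Within the 58, 1 of 4 other ligand genes and 2 of 8 other target genes reached it. The members and lists were chosen with earlier results of these data known, so these counts depend on that choice. The genes that cut the receptor were all detected, 10 of 10, summing to 175 and 192 TPM. Psenen (51.9 and 55.6 TPM) and Ncstn (20.1 and 23.3) encode gamma-secretase subunits, and Adam10 (45.0 and 50.5) encodes the protease of the first ligand-dependent cut. Aph1b, another gamma-secretase subunit, was the lowest at 1.07 and 1.2 TPM.

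Of the 9 enzymes that put sugars on Notch, 8 reached 1 TPM in both livers. Lfng (7.65 and 9.25 TPM) and Rfng (4.51 and 7.89), both Fringe enzymes that change how receptors respond to Delta and Jagged ligands, led before Poglut1 (5.91 and 4.97), an O-glucosyltransferase. The xylosyltransferase gene Gxylt2 had 0 reads and 1 read. The read share ratio of Rfng, 1.64 (1.43 to 1.89), was as large as that of Jag1, and Poglut1 had 0.816 (0.718 to 0.926).

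Of the 7 genes of the nuclear complex, 5 reached 1 TPM in both livers. Snw1 (44.2 and 50.8 TPM), also a splicing factor, led before Rbpj (5.65 and 6.79) and Kat2b (6.07 and 5.01), an acetyltransferase, and Maml3, a Mastermind coactivator, was the lowest at 0.48 and 0.61. Both values of Rbpj lay above both values of Notch2 and of Hes1. All 7 corepressor genes were detected, led by Hdac1 (87.6 and 93.7 TPM), Ncor1 (44.5 and 53.7) and Cir1 (16.5 and 15.9).

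Of the 13 genes of receptor and ligand trafficking and turnover, 9 reached 1 TPM in both livers. The ubiquitin ligase Itch (11.6 and 11.9 TPM), the Deltex family gene Dtx3 (9.16 and 12.3) and the endocytic Notch antagonist Numb (7.87 and 9.07) led. Dtx1 and Neurl1b shared the lowest mean, 0.025 TPM, from 4 reads each in replicate 1 and 2 and 1 reads in replicate 2.

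Among the 4 other ligand genes, Dlk1, a Delta-like membrane protein of fetal hepatoblasts that is also among the hepatoblast markers and lacks the receptor-binding DSL domain, stood at 273 and 325 TPM. The rest were almost without reads: Dner had 0 and 5 reads, Dll3 0 and 2, and Dlk2 0 in both, where a count of 0 allows up to 3 reads, or 0.0589 and 0.0847 TPM. Dlk1 alone thus carried more TPM than the 10 members together in each liver.

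Of the 8 other Hes, Hey and target genes, 2 reached 1 TPM in both livers. Hes6, a Hes relative known to oppose Hes1, stood at 12.33 and 11.96 TPM, above Hes1 in both livers, and Nrarp, a target that dampens Notch signalling, at 1.42 and 1.46. The Hey1 relatives Heyl (0.37 and 0.49 TPM) and Hey2 (0.17 and 0.28) were, like Hey1, below 1 TPM. Hes2 and Hes7 had 3 reads and 1 read each, and Hes3 and Hes5 had 0 in both livers. For Hes5, a Notch target best known from neural progenitors, a count of 0 allows up to 0.101 and 0.145 TPM, and for Hes3 up to 0.0415 and 0.0597.

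**Figure D5:**
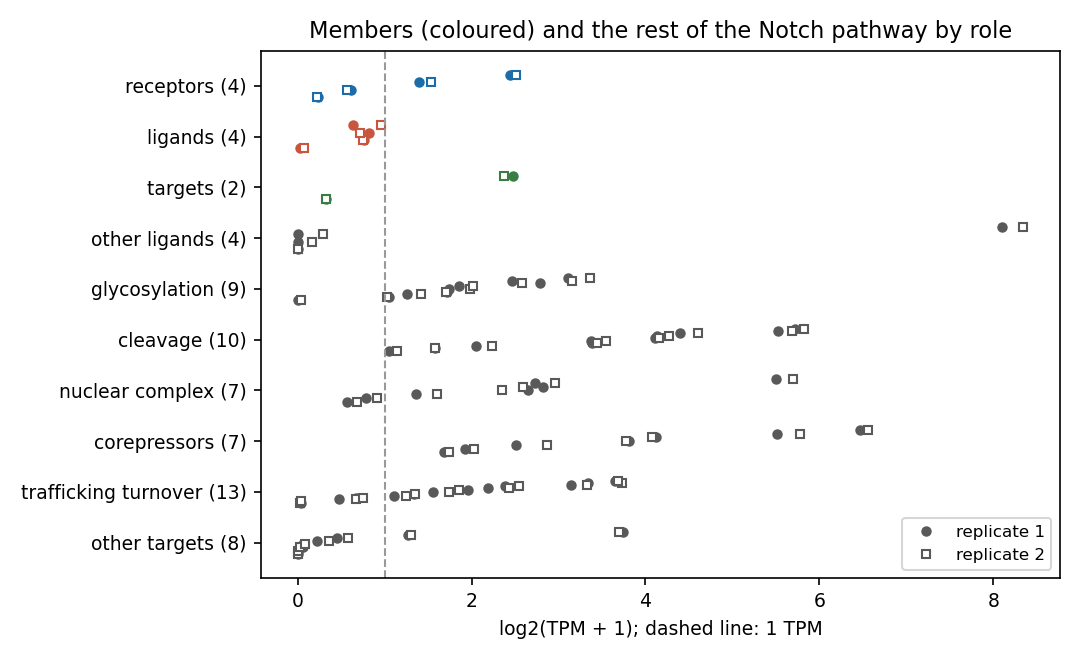
Levels as log2 of TPM plus 1 in replicate 1 (filled) and replicate 2 (open) for the members (coloured, top 3 rows) and the 7 lists of other pathway genes (grey), with the number of genes in parentheses and a dashed line at 1 TPM. All ligand members lie below the line, all 10 cleavage genes lie above it, and the single gene far to the right is Dlk1 at 273 and 325 TPM.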

How the data were processed

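Total RNA-seq of 2 embryonic livers, 1 library each, was used. Expected counts, TPM and FPKM per gene and transcript, and the percent of a gene's TPM held by each transcript, were deposited by the authors on mm10 with GENCODE M4, per the file headers and the deposited description. Aligner and counting program were not given in the sources used here. No scaling was applied to expected counts, whereas the deposited TPM and FPKM were scaled over all rows, spike-ins included. Symbols and positions came from GENCODE M21 by unversioned identifier, for 42462 of 43346 mouse rows, and promoters from RefSeq.

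Levels were taken as deposited. Poisson and binomial intervals (95%, scipy 1.17.1, Python 3.11.15) cover the counting error of independent reads only. Amplified reads need not be independent molecules, so the intervals can be too narrow. The binomial interval was checked on simulated independent counts of genes at a mean of 10 TPM or more. No member was that high, so the check does not cover the members' range. TMM factors came from edgeR 4.0.16 on expected counts rounded to whole numbers. A gene was detected at 1 TPM. Log2 ratios between the livers used a pseudocount of 1, whereas read share ratios and folds between genes used none. Other thresholds, pseudocounts, scalings, units and single livers were tried. Depth was 37059776 and 26908926 mouse reads.

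The members and lists were chosen with earlier results of these data known. All members, the 3 highest and the lowest gene of each list, and every other ligand and target gene were to be named, and 3 of these genes are not reported here. Cdh5, Tek, Rgs5, Epcam and the transcripts were named after their values were seen.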

Additional observations from a re-analysis of the deposited data

How the results depend on the processing

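The design holds 1 group of 2 livers, so no result has a test, the SD rests on 2 values, and depth resolves only the higher members. No paired analysis was possible because there was 1 group. At 0.5 TPM in place of 1 TPM, 6 members were detected in both livers, and at 2 TPM 2 were. With a pseudocount of 0.1 and no filter on low genes, 1 member (Jag1) was 1.5-fold apart between the livers. Under the other settings run 0 were, all on log2 ratios with a pseudocount. The read share ratio of Jag1, which has no pseudocount, was 1.63. By expected counts, not scaled by length, Notch2 held 73.2% of the receptors and Hes1 91.0% of the targets. By leading transcripts alone, an alternative chosen after seeing the data, Notch2 held 70.3% of the receptors and Dll4 38.2% of the ligands. Of 45 pairs of members, 4 changed order by expected counts, 2 by leading transcripts, and 1 to 3 with 1 liver left out: 1 without replicate 1 and 3 without replicate 2. The cause was not tested beyond these changes of unit. With TPM rescaled over mouse gene rows without globin genes, so that spike-ins were left out too, Jag1 stood at 1.35 TPM. The levels of all 10 members were higher, as a smaller total must make them. FPKM rescaled over mouse gene rows, globin included, gave Jag1 0.826. A pseudocount of 5 gave Jag1 a log2 ratio of 0.098 and one of 0.1 gave 0.68, and its read share ratio with TMM-scaled totals was 1.57 (1.23 to 2.00). A filter at a mean of 10 TPM could not give a value, since no member was that high.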
